A study of Mus musculus with 6 samples.

Results

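The mouse genes with a three-digit Zfp symbol encode zinc finger proteins, and their RNA was followed in bone marrow LSK cells (lineage-negative, Sca-1+, Kit+ cells, the fraction that holds blood stem and early progenitor cells) with and without Setd2. A gene was a member if its symbol in the deposited files was Zfp followed by exactly 3 digits. This rule found 243 of the 14468 genes listed in at least 1 library, under 242 symbols, because Zfp865 had 2 rows. Each of the 243 was described in the files as a zinc finger gene. Members lay on 20 chromosomes, with 63 on chromosome 7, 27 on chromosome 17, 24 on chromosome 13 and 3 on the X.

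Most of these proteins carry repeated C2H2 fingers, small zinc-holding loops that each read a few bases of DNA. In many a KRAB domain recruits Trim28, which brings the H3K9 methyltransferase Setdb1 and HP1 proteins, and such factors are known above all for silencing transposons and marking imprinted regions. Many of the genes themselves arose by tandem duplication and sit in clusters. Their 3′ ends are known to carry H3K9me3 together with H3K36me3, the mark that Setd2 places on the bodies of transcribed genes. A few members without KRAB have other work, among them factors of stem cells, ribosome assembly and RNA binding.

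RNA was sequenced as total RNA from sorted C57BL/6 LSK cells in 4 libraries, 1 per group. The groups were young Setd2 KO and young WT cells, taken 4 weeks after induction with pI-pC (polyinosinic-polycytidylic acid, an interferon inducer used to switch on a Cre transgene), and old Setd2 KO and old WT cells, taken 8 months after it. Both genotypes are labelled as induced. The Cre line, the ages of the mice at induction and the number of animals behind each library are not given in the sources used here. Since each group is 1 library, no spread between replicates, SD or p-value exists for any value below, and every difference compares single libraries.

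Levels are FPKM (fragments per kilobase of transcript, relative to the depth of the library) scaled between libraries, and a difference is that of log2(FPKM + 1), which understates the change of low genes. Each file lists only genes at an FPKM of 0.5 or more, so an unlisted gene was set to 0.5. A gene was measured in a comparison if it reached 1 in at least 1 of its 2 libraries, and it was called 2-fold higher or lower if the difference reached 1 in size. An FPKM of 1 on 1 kb of transcript stood for 9.04 counted units in young KO, 9.57 in young WT, 18.1 in old KO and 17.9 in old WT cells. For a 2 kb transcript at the members' median level, counting error alone then gave a difference a 95% half-width of 0.38 between the young libraries and 0.28 between the old ones. Setd2 had 12.4 FPKM in young KO and 14.1 FPKM in young WT cells, and 15.5 FPKM in old KO and 15.3 FPKM in old WT cells. This value covers the whole gene and the labels do not name the deleted exons, so it does not check the genotype labels. The 10 LSK markers (Kit, Ly6a, Cd34 and others) were listed in all 4 libraries, with sums between 183 and 218 FPKM. Markers of other cells differed between libraries. Erythroid markers, 10 of 10 listed in every library, summed to 621 FPKM in young KO and 262 FPKM in young WT cells, and to 149 FPKM in old KO and 223 FPKM in old WT cells. The 8 plasma cell markers summed to 206 FPKM in old KO and 2170 FPKM in old WT cells (8 of 8 listed in each), and to 58.6 FPKM in young KO (6 listed) and 43.8 FPKM in young WT cells (5 listed, with Tnfrsf17 and Prdm1 unlisted in both). Neutrophil markers summed to 1724 FPKM in old KO and 903 FPKM in old WT cells, with 9 of 9 listed in each. In the young libraries they summed to 672 FPKM in KO and 719 FPKM in WT cells, and Camp, Ltf, Ngp and S100a9 were not listed in either. In every library Elane and Mpo made up most of the sum, at 300 and 368 FPKM in young KO and 371 and 345 FPKM in young WT cells. Monocyte markers, 7 of 7 listed throughout, summed to 389 FPKM in old KO and 88.9 FPKM in old WT cells, and to 76.8 FPKM in young KO and 83.1 FPKM in young WT cells. B cell markers summed to 17.7 FPKM in old KO, 42.4 FPKM in old WT and at most 9.79 FPKM in young cells. T and NK cell markers summed to between 35.0 and 59.1 FPKM. Most of this was Nkg7, at 47.9 FPKM in young KO, 58.5 in young WT, 38.3 in old KO and 33.6 in old WT cells. Cd4 and Cd8a were listed in no library, and Cd3e and Cd3g in neither young library. The part of these cells in the differences below was not tested, and in bulk RNA fewer cells of a type and less RNA per cell cannot be told apart.

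The three-digit Zfp genes were broadly but weakly expressed. In young KO cells 236 of the 243 were listed and in young WT cells 240, and in old KO cells 232 and in old WT cells 237. Among them 227 were listed in all 4 libraries, 8 in 3, 5 in 2 and 3 in 1. The mean level of a member had a median of 3.45 FPKM, with a quartile range from 1.77 to 7.0 FPKM. A mean of 10 FPKM or more was reached by 34 members, and 26 stayed under 1 FPKM. Listed members had a median of 3.52 FPKM in young KO and 3.74 FPKM in young WT cells, against 5.39 and 5.33 FPKM over all listed genes of these libraries. In old KO and old WT cells the members' medians were 3.40 and 3.41 FPKM, against 5.44 and 5.53 FPKM over all genes. Their share of all summed FPKM was 0.564% in young KO, 0.637% in young WT, 0.483% in old KO and 0.412% in old WT cells. This share depends on other abundant rows as well as on the members. The highest row of each library, Gm26917, had 43520 FPKM in young KO and 28409 FPKM in young WT cells. In old KO cells it had 35576 FPKM and in old WT cells 29472 FPKM.

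The member with the highest mean was Zfp706, a small zinc finger protein that helps mouse embryonic stem cells leave self-renewal. Zfp706 had 50.3 FPKM in young KO, 48.8 in young WT, 49.4 in old KO and 42.7 in old WT cells. Next came Zfp445, a KRAB protein that maintains genomic imprints in mouse and human, with 39.5 FPKM in young KO, 38.7 in young WT, 30.7 in old KO and 31.5 in old WT cells. Both lay within a factor of 2 across the 4 libraries. Zfp106, an RNA-binding protein, had 25.4 FPKM in young KO, 27.3 in young WT, 27.3 in old KO and 27.1 in old WT cells. Zfp207, also called BuGZ, guards the kinetochore protein Bub3, and it had 32.4 FPKM in young KO, 28.2 in young WT, 21.3 in old KO and 20.7 in old WT cells. Of these genes, Zfp445 and Zfp207 had lower values in both old libraries than in both young ones.

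Zfp598, a ubiquitin ligase that senses collided ribosomes, had 22.3 FPKM in young KO, 18.3 in young WT, 21.6 in old KO and 24.7 in old WT cells. Zfp608, which represses the Rag genes in mouse thymocytes, had 16.6 FPKM in young KO, 21.3 in young WT, 22.7 in old KO and 18.0 in old WT cells. For both genes the order of KO and WT differed between the ages. Zfp292 had 19.3 FPKM in young KO, 20.4 in young WT, 17.0 in old KO and 20.4 in old WT cells. Zfp146 had 16.2 FPKM in young KO, 16.6 in young WT, 22.6 in old KO and 21.6 in old WT cells. Neighbours in this order of means, from Zfp598 to Zfp146, had ranges over the 4 libraries that overlapped.

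**Figure D1:**
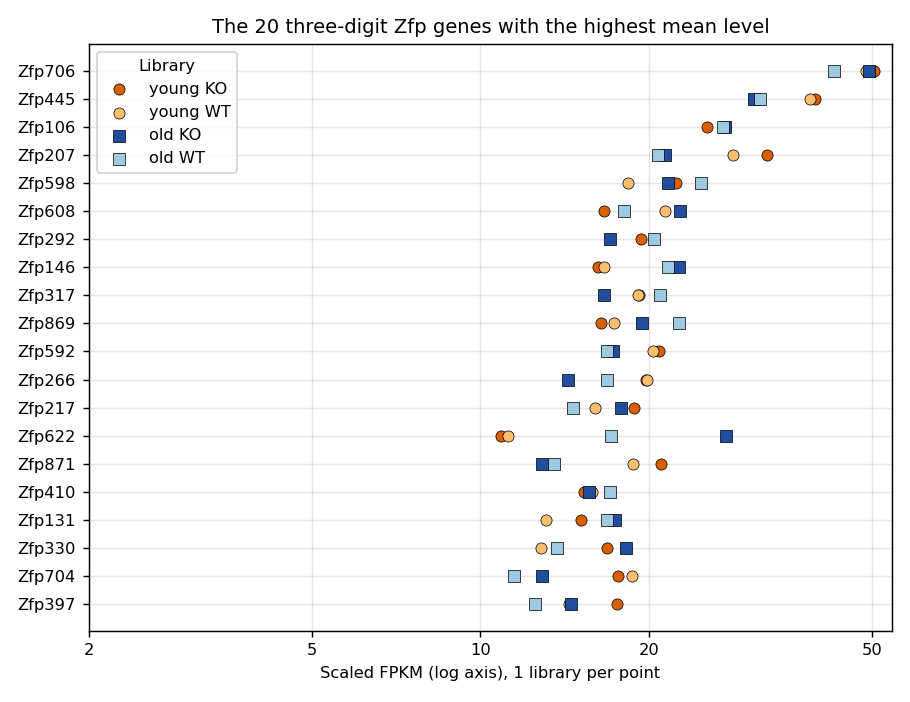
Scaled FPKM (log axis) of the 20 three-digit Zfp genes with the highest mean, 1 point per library. Zfp706 lies between 42.7 and 50.3 FPKM in the 4 libraries, and Zfp622 reaches 27.4 FPKM in old KO cells against 10.9 in young KO cells.

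Members with a known part in blood or stem cells were mostly at like levels in KO and WT cells. An exception described below is Zfp281, with 1.49 FPKM in old KO and 6.19 FPKM in old WT cells. Zfp521, a stem and progenitor cell factor that binds the NuRD complex and holds back the B cell factor Ebf1, had 9.66 FPKM in young KO and 8.49 in young WT cells, and 6.39 FPKM in old KO and 6.23 in old WT cells. Zfp148 (ZBP-89) had 13.9 FPKM in young KO and 15.2 in young WT cells, and 12.4 FPKM in old KO and 13.4 in old WT cells. Neither gene reached 0.2 in size in a KO comparison. Zfp217, which binds corepressors and is known as an oncogene of human breast cancer, had 18.8 FPKM in young KO and 16 in young WT cells, and 17.8 FPKM in old KO and 14.6 in old WT cells. Zfp217 was thus higher in KO cells at both ages, by less than 2-fold, with differences of 0.22 in young and 0.27 in old cells. At 10 FPKM and 2 kb, a level below that of Zfp217, the counting half-width is 0.26 between the young and 0.19 between the old libraries.

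Zfp410, an activator of the chromatin remodeller gene Chd4, had 15.3 FPKM in young KO and 15.8 in young WT cells, and 15.6 FPKM in old KO and 17.0 in old WT cells. Zfp143, which binds a long motif at promoters, had 4.83 FPKM in young KO and 5.38 in young WT cells, and 4.83 FPKM in old KO and 5.71 in old WT cells. Both were slightly lower in KO cells at both ages, within the counting half-width of a single difference. Zfp318, needed for IgD expression in mature B cells, had 3.98 FPKM in young KO and 4.58 in young WT cells, and 3.47 FPKM in old KO and 4.12 in old WT cells. Zfp335, required for T cell maturation in mice, had 12.6 FPKM in young KO and 10.5 in young WT cells, and 13.2 FPKM in old KO and 12.8 in old WT cells. Zfp384, a fusion partner in human B cell leukaemia, stayed between 2.29 and 2.84 FPKM in the 4 libraries.

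Zfp809, which silences retroviral DNA in mouse embryonic cells, stayed between 8.88 FPKM in old KO and 12.3 FPKM in young KO cells. Zfp644, a partner of the H3K9 methyltransferases G9a and GLP, had 5.77 FPKM in young KO and 6.17 in young WT cells, and 5.19 FPKM in old KO and 4.76 in old WT cells. For both genes the sign of KO minus WT differed between the ages. Zfp568, which represses a placental transcript of Igf2, had 1.96 FPKM in young KO and 1.27 in young WT cells, and 1.93 FPKM in old KO and 1.97 in old WT cells. Zfp467, a factor at the choice between bone and fat in mice, had 1.25 FPKM in young KO and 0.631 in young WT cells, and 1.35 FPKM in old KO and 1.04 in old WT cells. Of 20 three-digit Zfp genes of known role picked for description, Zfp711 was listed in no library.

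The comparison of young KO with young WT cells asks what the loss of Setd2 does to these genes 4 weeks after induction. Zfp260 was higher in young KO cells and Zfp580 and Zfp180 were lower. Of 225 members measured, these were the 1 called 2-fold higher and the 2 called 2-fold lower, together 1.33% of the members, while over all 12416 measured genes 1.70% were called, 0.999% higher and 0.701% lower. The difference was under 0.5 in size for 96.9% of the members and for 88.8% of all genes. The members' median difference was -0.03, against 0.00 over all genes, and its quartiles were -0.19 and 0.13. The difference was above 0 for 95 members and below 0 for 130, so 42.2% were above 0, against 50.4% of all genes. Without scaling of the libraries the members' median was -0.14 and that of all genes -0.10, and the calls were 0 higher and 2 lower.

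Zfp580 (chr7:5051532-5053722) had 0.819 FPKM in young KO and 3.48 FPKM in young WT cells, and 0.770 FPKM in old KO and 2.07 FPKM in old WT cells. Both KO libraries lay below both WT libraries. The difference was -1.30 in young cells, past 2-fold, and -0.79 in old cells, short of it. Zfp180 (chr7:24081924-24107713) had 1.20 FPKM in young KO and 3.91 FPKM in young WT cells, and 0.917 FPKM in old KO and 1.15 FPKM in old WT cells. The young WT library stood above the other 3, so that the difference was -1.16 in young and -0.17 in old cells. Zfp260 (chr7:30094777-30107622) had 2.98 FPKM in young KO and 0.943 FPKM in young WT cells, and 1.83 FPKM in old KO and 3.90 FPKM in old WT cells. Its difference was 1.03 in young cells and -0.79 in old cells, and both WT libraries were the extremes of its range. All 3 genes were low, at most 3.91 FPKM in any library, where a difference at 1 FPKM and 2 kb has a counting half-width of 0.46 between the young libraries. Erythroid markers were higher in young KO than in young WT cells, with 5 of 10 called, and their part in these differences was not tested.

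Short of the call, the lowest differences in young cells were those of Zfp451, a SUMO ligase, at -0.70, Zfp606 at -0.61, Zfp455 at -0.56 and Zfp930 at -0.50. At the upper end stood Zfp438 at 0.64, with 3.76 FPKM in young KO and 2.05 FPKM in young WT cells, followed by Zfp467 at 0.47 and Zfp808 and Zfp618 at 0.42. Zfp438 had 2.78 FPKM in old KO and 2.79 FPKM in old WT cells. The other 18 members were not measured in this comparison, which by the rule means under 1 FPKM in both young libraries.

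The same question 8 months after induction is asked by old KO against old WT cells. Zfp422 and the shorter of the Zfp865 rows were higher in old KO cells, and Zfp281, Zfp451 and Zfp937 were lower. These 2 higher and 3 lower calls were 2.30% of the 217 members measured, while 4.32% of all 12486 measured genes were called, 1.65% higher and 2.67% lower. The difference was under 0.5 in size for 91.7% of the members and 84.0% of all genes. The members' median was -0.02, against 0.00 over all genes, with 103 members above 0 and 114 below, 47.5% above 0 against 50.4% of all genes. Plasma cell markers were lower and neutrophil and monocyte markers higher in old KO than in old WT cells, with 8 of 8, 7 of 9 and 7 of 7 called, and 2 of the 10 LSK markers were called lower. Of the 10 erythroid markers 3 were called higher and 2 lower.

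Zfp281 (chr1:136624901-136630053), which works with Nanog and NuRD in mouse embryonic stem cells, had 1.49 FPKM in old KO and 6.19 FPKM in old WT cells, and 5.74 FPKM in young KO and 4.88 FPKM in young WT cells. The old KO library lay far below the other 3, and the difference was -1.53 in old cells and 0.20 in young cells. Zfp451 (chr1:33761545-33814595), the SUMO ligase, had 2.88 FPKM in old KO and 8.99 FPKM in old WT cells, and 6.27 FPKM in young KO and 10.8 FPKM in young WT cells. Both KO libraries were below both WT libraries, with differences of -1.37 in old and -0.70 in young cells. Zfp937 (chr2:150218073-150240725) had 0.788 FPKM in old KO and 2.67 FPKM in old WT cells, and 0.887 FPKM in young KO and 1.23 FPKM in young WT cells. Its difference was -1.04 in old and -0.24 in young cells, at levels near the measuring limit in 3 of the 4 libraries.

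Zfp422 (chr6:116624016-116628999), also called Krox26, a factor of tooth development, had 15.5 FPKM in old KO and 1.80 FPKM in old WT cells, and 17.4 FPKM in young KO and 17.8 FPKM in young WT cells. The old WT library was thus the one that stood apart, and old KO cells were near both young libraries. The difference was 2.55 in old and -0.03 in young cells. In the same old WT library the plasma cell markers had their highest sum, and their part in the value of Zfp422 was not tested. The shorter row of Zfp865 (chr7:5029018-5032771) lies inside the longer row (chr7:5020376-5033223), so the 2 rows can share reads. The shorter row had 4.33 FPKM in old KO cells, was not listed in old WT cells, and had 0.745 FPKM in young KO and 0.735 FPKM in young WT cells. Its difference of 1.83 in old cells was taken against the listing limit. The longer row had 7.60 FPKM in old KO and 9.68 FPKM in old WT cells, and 12.4 FPKM in young KO and 12.2 FPKM in young WT cells. Summed over both rows, Zfp865 was not called, which left 1 member called higher in old KO cells.

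**Figure D2:**
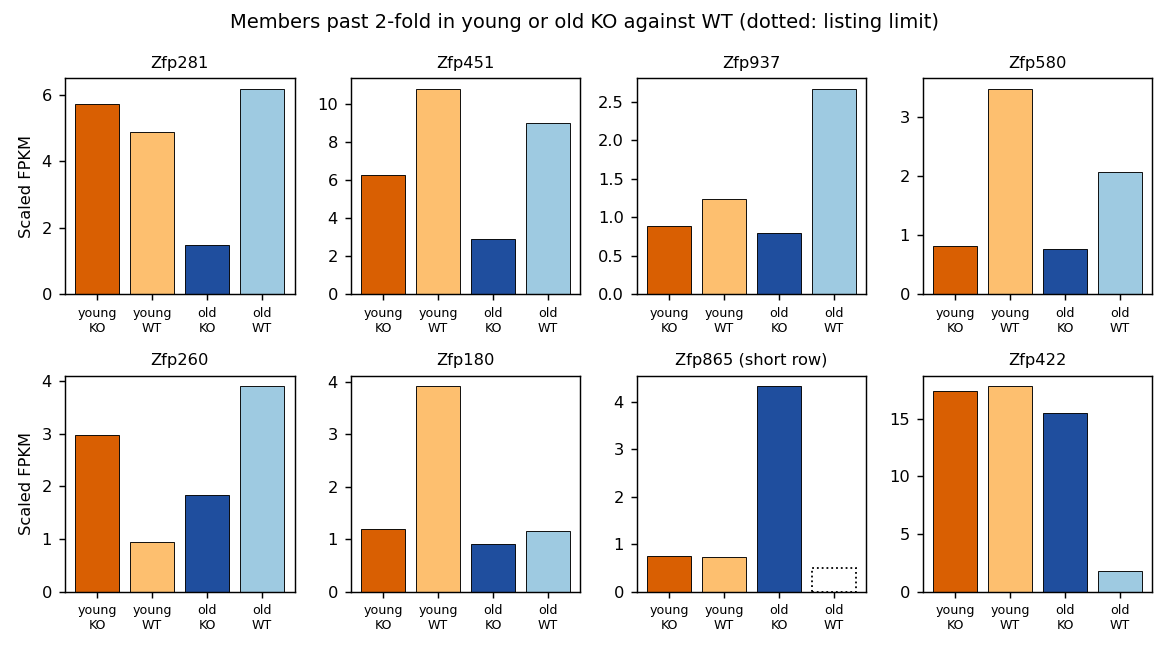
Scaled FPKM of the 8 rows past 2-fold in young or old KO against WT, 1 bar per library, each panel with its own axis from 0. Zfp451 and Zfp580 are lower in KO than in WT cells at both ages, Zfp422 is low in old WT cells at 1.80 FPKM, and the dotted bar marks the listing limit of 0.5 FPKM for the unlisted value.

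Just short of the call in old cells was Zfp939 at -0.91, with 0.957 FPKM in old KO and 2.67 FPKM in old WT cells. Zfp580 and Zfp260, given above, followed at -0.79 each. Zfp566 was at -0.73, with 3.37 FPKM in old KO and 6.26 FPKM in old WT cells. Zfp251 was at -0.68, with 5.27 FPKM in old KO and 9.01 FPKM in old WT cells. On the other side Zfp622, whose yeast counterpart helps mature the 60S ribosomal subunit, was at 0.65, with 27.4 FPKM in old KO and 17.1 FPKM in old WT cells. Zfp593, whose yeast counterpart serves the export of the same subunit, was at 0.46, with 8.23 FPKM in old KO and 5.72 FPKM in old WT cells. Zfp513 was at 0.63 with low levels, 2.51 FPKM in old KO and 1.26 FPKM in old WT cells, and Zfp516, a factor of brown fat in mice, was at 0.56. The other 26 members were not measured here, which by the rule means under 1 FPKM in both old libraries.

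The KO comparisons of the 2 ages share no library, and 213 members were measured in both. Their differences had the same sign for 116 members, 54.5%, against 51.5% of the 11879 genes measured in both. No member was past 2-fold in both. Past 0.3 in size, a bound taken with the values in view, 6 members were lower in KO cells at both ages, where 3.65% of all genes were, and 1 was higher at both, where 2.53% of all genes were. Together these were 3.29% of the 213 members, a smaller share than the 6.17% of all genes. The 6 lower members were Zfp451 and Zfp580, given above, Zfp382 (-0.46 in young and -0.63 in old cells), Zfp458 (-0.39 and -0.57), Zfp647 (-0.42 and -0.42) and Zfp867 (-0.35 and -0.50). The higher member was Zfp330, with 16.8 FPKM in young KO and 12.8 FPKM in young WT cells, and 18.2 FPKM in old KO and 13.7 FPKM in old WT cells. Zfp330 was the one of these 7 members with a level above 10 FPKM in all 4 libraries. Across the 213 genes, which share libraries and are not independent replicates, the Pearson correlation of the differences at the 2 ages was 0.13 and the Spearman correlation 0.12, against -0.02 and 0.02 over all genes.

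**Figure D3:**
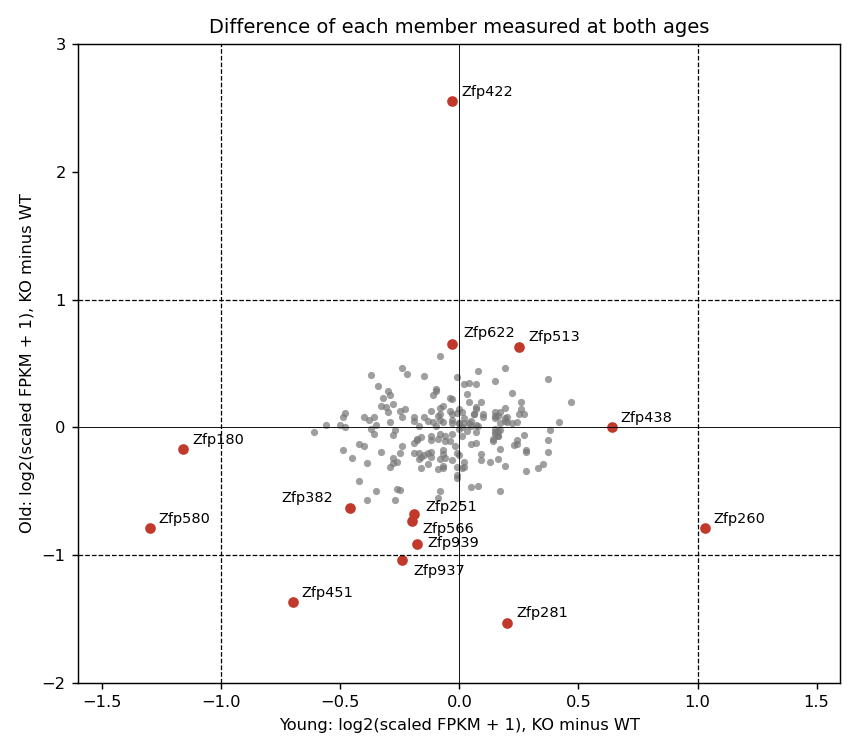
Difference in log2(scaled FPKM + 1), KO minus WT, in young (horizontal) and old cells (vertical) for the 213 genes measured at both ages, with dashed lines at 2-fold. Most points lie near 0 on both axes, and Zfp451 and Zfp580 lie low on both. Zfp260 lies at 1.03 in young and -0.79 in old cells. Zfp281 and Zfp422 lie far from 0 in old cells only. Their young values of 0.20 and -0.03 are within the counting half-width.

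Time after induction was compared within each genotype. In old WT against young WT cells Zfp260 was higher, with a difference of 1.34, and Zfp422, Zfp180 and Zfp945 were lower, at -2.75, -1.19 and -1.05. These are 1 higher and 3 lower calls among 224 members, while 5.50% of all genes were called, 4.17% higher and 1.34% lower. The members' median was -0.07, against -0.01 over all genes, with 89 above 0, 39.7% against 49.2% of all genes. In old KO against young KO cells 221 members were measured, of which 4 were called higher and 1 lower, while 7.21% of all genes were called, 4.95% higher and 2.26% lower. The members' median was -0.12, against -0.00 over all genes, with 87 above 0, 39.4% against 49.8% of all genes. These 2 comparisons share no library with each other but each shares 1 library with each of the KO comparisons, so that the old WT value of Zfp422 enters both a KO and an age comparison.

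The 4 rows higher in old KO than in young KO cells were the shorter Zfp865 row at 1.61, Zfp930 at 1.26, Zfp622 at 1.25 and Zfp830 at 1.19, and the lower one was Zfp281 at -1.44. Zfp622 had 27.4 FPKM in old KO and 10.9 FPKM in young KO cells, and 17.1 FPKM in old WT and 11.2 FPKM in young WT cells. Zfp830, also called Omcg1 and needed for cell division in early mouse embryos, had 12.3 FPKM in old KO and 4.82 FPKM in young KO cells, and 9.03 FPKM in old WT and 6.54 FPKM in young WT cells. Zfp930 had 6.50 FPKM in old KO and 2.13 FPKM in young KO cells, and 6.38 FPKM in old WT and 3.41 FPKM in young WT cells. In these 3 genes both old libraries were above both young ones, and the old KO value was the highest.

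Of 216 members measured in both age comparisons, 4 were lower by 0.5 or more in both, 1.85% against 3.22% of all genes. In both, 3 were higher, 1.39% against 6.86% of all genes. The lower 4 were Zfp526, Zfp783, Zfp866 and Zfp950. Zfp526 had 9.20 FPKM in old KO and 14.3 FPKM in young KO cells, and 9.58 FPKM in old WT and 14.6 FPKM in young WT cells. The higher 3 were Zfp622, Zfp930 and Zfp961. Zfp961 had 2.01 FPKM in old KO and 0.542 FPKM in young KO cells, and 1.87 FPKM in old WT and 0.480 FPKM in young WT cells, and its locus overlaps that of Cyp4f18. Old and young libraries also differed in Xist, the X-inactivation RNA, at 279 FPKM in old KO and 291 FPKM in old WT cells and not listed in the young libraries. Y-linked Eif2s3y had 11.9 FPKM in young KO and 9.91 FPKM in young WT cells and was not listed in the old libraries. Time after induction and these marks of sex cannot be told apart here.

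By position, 152 members fell into 34 clusters in which neighbours lay at most 500 kb apart, and 91 members stood alone. The 10 clusters of 5 or more held 88 members, and 5 of these 10 were on chromosome 7. Clusters were chained over listed members only. A lone member can therefore have unlisted three-digit neighbours, as Zfp445 has in the RefSeq annotation. By this grouping, clustered members were expressed at lower levels than lone ones. The median of listed members was 2.87 FPKM in clusters and 5.76 FPKM alone in young KO cells, and 3.02 and 6.11 FPKM in young WT cells. In old KO cells the medians were 2.51 FPKM in clusters and 5.69 FPKM alone, and in old WT cells 2.61 and 5.84 FPKM. In young KO against young WT cells the median difference was -0.02 over the 138 clustered and -0.06 over the 87 lone members measured, and all 3 called members were clustered. In old KO against old WT cells it was -0.04 over 135 clustered and 0.01 over 82 lone members, with 2 called members in clusters and 3 alone.

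No cluster of 5 or more moved past 2-fold as a whole. Their median differences ran from -0.26 to 0.04 in young KO against young WT cells and from -0.35 to 0.10 in old KO against old WT cells. The largest cluster, 14 members at chr13:67038594-67827002 from Zfp712 to Zfp273, had a median of -0.09 in young cells, with 4 members above 0 and 7 below, and of -0.18 in old cells, with 5 above and 7 below. Its member of highest mean was Zfp748, at 8.57 FPKM in young KO and 8.12 in young WT cells and 5.81 FPKM in old KO and 6.42 in old WT cells. The 13 members at chr17:21008941-22867134, led by Zfp160, had a median of -0.17 in young and -0.07 in old cells. The 9 members at chr17:32771236-33631779, led by Zfp871, had medians of 0.04 and -0.07. At chr6:47819266-48623227, the 10 members led by Zfp212 had a median of 0.01 at both ages. The 10 members at chr7:127233061-127885996, led by Zfp646, had medians of 0.03 in young and 0.10 in old cells, and in old cells 7 of the 9 measured were above 0. The 5 members at chr8:69226343-69791178, led by Zfp869, had medians of -0.07 and -0.02.

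Neighbouring members did not always move alike. In the cluster of 8 at chr7:29816072-30169727, Zfp566, Zfp260 and Zfp382 follow one another. They differed in old KO against old WT cells by -0.73, -0.79 and -0.63, and in young KO against young WT cells by -0.20, 1.03 and -0.46. Their neighbour Zfp146, the member of highest mean there, differed by -0.03 in young and 0.06 in old cells. The cluster's median was -0.03 in young and -0.35 in old cells. In old cells no other of the 10 clusters had a lower median, while in young cells 6 of them did. Zfp566 overlaps Gm26920, a predicted gene in the files, and the use of strand in counting is not given, so reads of the 2 may not be separate. In the cluster of 7 rows at chr7:4915217-5053722, Zfp580 was lower in KO cells with differences of -1.30 in young and -0.79 in old cells, while the longer Zfp865 row differed by 0.02 in young and -0.31 in old cells, and the cluster's medians were -0.21 in young and -0.19 in old cells. In the cluster of 5 at chr7:24081924-24237560 that holds Zfp180, the medians were -0.25 and -0.13. The 7 members at chr7:12415153-12984340, led by Zfp110, had medians of -0.26 in young and -0.00 in old cells.

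**Figure D4:**
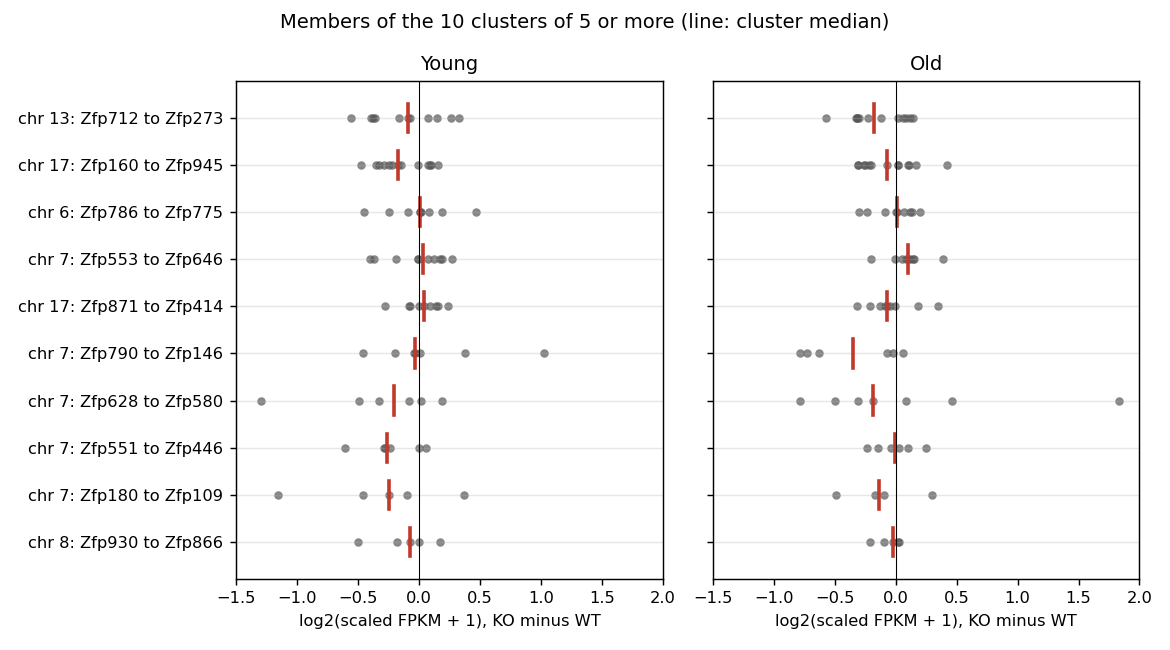
Difference in log2(scaled FPKM + 1), KO minus WT, of each measured member (points) in the 10 clusters of 5 or more, young cells left and old cells right, with the cluster median as a line. Medians stay between -0.35 and 0.10, and single genes such as Zfp260, Zfp580 and Zfp180 lie far from their neighbours.

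RefSeq on GRCm38.p6, the same build as the files, has 322 genes with a three-digit Zfp symbol, and 239 of them, 74.2%, were listed in at least 1 library. Of the deposited rows 240 matched a RefSeq symbol, and Zfp125, Zfp191 and Zfp607 did not. The share listed was 75.7% of 107 lone genes, 70.2% of 84 genes in clusters of 2 to 4 and 75.6% of 131 genes in clusters of 5 or more. Among the large clusters it was uneven. At chr4:145510759-147849126 only Zfp534 and Zfp933 were listed of 16 genes, and at chr7:42473386-43618279 4 of 9 were. In contrast all 10 genes of the chromosome 6 cluster and all 10 of the cluster at chr7:127233061-127885996 were listed. Many genes of the chromosome 4 cluster are known to be recent, similar copies, and the sources used here do not say how the authors counted reads that match several copies.

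**Figure D5:**
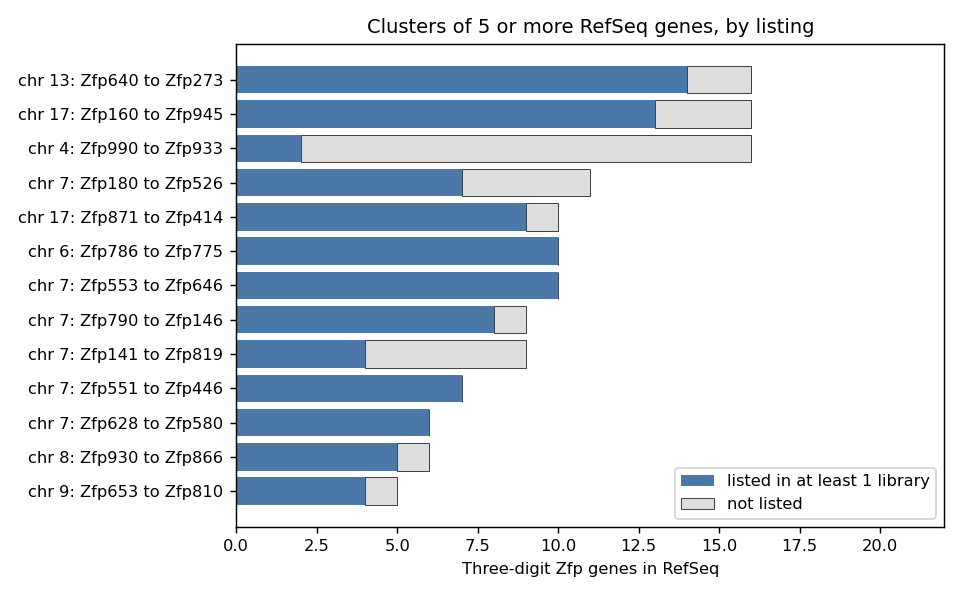
Number of RefSeq three-digit Zfp genes in each cluster of 5 or more, split into genes listed in at least 1 library and genes not listed. The chromosome 4 cluster from Zfp990 to Zfp933 has 2 of 16 listed, while 2 clusters of 10 are listed in full.

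Promoter sequences of RefSeq, taken as the 250 bases before each start, were available for 198 members in 240 windows. The ratio of observed to expected CpG had a median of 0.658 in these windows, and 58.3% of them reached 0.6, the usual bound of a CpG island. Of all 21263 windows of protein-coding genes, expressed in LSK cells or not, 44.7% reached it, with a median of 0.530. Of the 78 windows of three-digit Zfp genes that no library listed 33.3% did, with a median of 0.424. The members were chosen by their listing in these libraries and the protein-coding windows were not, so these sets also differ in that choice. Within the members 50.3% of the windows of clustered genes and 71.0% of those of lone genes reached it. The ETS motif CCGGAAG, on either strand, was in 15.8% of the members' windows, 20.5% of the windows of the unlisted three-digit Zfp genes and 8.98% of all protein-coding windows. In the same order the SP and KLF motif GGGCGG was in 45.4%, 34.6% and 42.6%, CCAAT in 47.1%, 55.1% and 35.4%, the YY1 motif AAGATGGC in 2.08%, 1.28% and 1.5%, and TATAAA in 6.25%, 7.69% and 11.6%. The long motif that Zfp143 itself binds (SBS) was in 4 of the members' windows, 1.67%, in 3.85% of the unlisted genes' windows and in 0.390% of protein-coding windows. The ETS, CCAAT and Zfp143 shares of the unlisted genes were thus no lower than those of the members. These are matches of letters, and windows of neighbouring copies share ancestry.

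The windows of the 5 members called lower in KO cells are printed here because these genes carry the lower calls of the KO comparisons. Each is given 5′ to 3′ on the gene's strand, on GRCm38.p6, and ends at the base before the start in RefSeq's promoter table. The RefSeq gene of Zfp281 begins at that start. For the other 4 another transcript begins farther upstream, so that the windows of Zfp580 and Zfp451 lie inside the RefSeq gene. Capitals mark matches of the SP and KLF, ETS, YY1 and Zfp143 motifs on either strand. The windows are chr7:5051282-5051531 (Zfp580, plus strand), chr7:24081647-24081896 (Zfp180, plus), chr1:33814596-33814845 (Zfp451, minus), chr1:136624651-136624900 (Zfp281, plus) and chr2:150217849-150218098 (Zfp937, plus).
Zfp580: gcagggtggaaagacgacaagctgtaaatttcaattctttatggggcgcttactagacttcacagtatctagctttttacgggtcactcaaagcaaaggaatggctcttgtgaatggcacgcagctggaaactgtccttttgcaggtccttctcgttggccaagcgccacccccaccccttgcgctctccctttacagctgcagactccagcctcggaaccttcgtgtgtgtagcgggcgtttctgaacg
Zfp180: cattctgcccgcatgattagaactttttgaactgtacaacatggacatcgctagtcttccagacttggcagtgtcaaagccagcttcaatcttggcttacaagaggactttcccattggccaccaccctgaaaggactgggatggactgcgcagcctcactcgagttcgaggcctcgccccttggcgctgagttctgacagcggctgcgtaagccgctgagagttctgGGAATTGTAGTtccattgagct
Zfp451: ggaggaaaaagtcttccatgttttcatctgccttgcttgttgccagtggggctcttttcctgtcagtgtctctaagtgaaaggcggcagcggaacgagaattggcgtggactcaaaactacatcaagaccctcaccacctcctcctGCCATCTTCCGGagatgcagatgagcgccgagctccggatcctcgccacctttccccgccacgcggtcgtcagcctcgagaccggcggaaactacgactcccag
Zfp281: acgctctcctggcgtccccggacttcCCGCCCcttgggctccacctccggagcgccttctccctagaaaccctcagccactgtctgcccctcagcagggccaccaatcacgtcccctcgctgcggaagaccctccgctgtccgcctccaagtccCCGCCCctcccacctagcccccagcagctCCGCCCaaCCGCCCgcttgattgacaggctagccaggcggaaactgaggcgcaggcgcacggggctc
Zfp937: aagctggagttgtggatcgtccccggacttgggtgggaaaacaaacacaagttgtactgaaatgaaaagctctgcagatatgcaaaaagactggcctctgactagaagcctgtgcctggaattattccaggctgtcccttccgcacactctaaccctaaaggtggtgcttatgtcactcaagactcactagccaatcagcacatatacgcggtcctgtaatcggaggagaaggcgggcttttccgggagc
The 5 windows did not look alike. Zfp281 has 4 SP and KLF matches, the highest GC content at 69.6% and a CpG ratio of 0.70. The window of Zfp451 holds a YY1 and an ETS match that overlap, with a CpG ratio of 0.84. Zfp180 has the Zfp143 motif close to its start, while Zfp580, at a CpG ratio of 0.70, and Zfp937, at 0.50, hold none of the marked motifs. CCAAT, which is not marked in capitals, has a match on either strand in each window except that of Zfp580. A window without a match says only that these letters are not in it. The CpG ratio of Zfp180 was 0.57, so 3 of the 5 windows reached the bound of 0.6.

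The partners that KRAB zinc finger proteins work through were followed as a list of 26 genes, from Trim28 and Setdb1 to HP1 proteins, DNA methyltransferases and H3K9 methyltransferases. All 26 were measured. In young KO against young WT cells none was called, where 1.70% of all measured genes were, and the median was 0.10. In old KO against old WT cells 1 was called, lower, and the median was 0.01. This is 3.85% of the list, where 4.32% of all measured genes were called. Trim28 had 89.8 FPKM in young KO and 96.0 FPKM in young WT cells, and 76.4 FPKM in old KO and 75.4 FPKM in old WT cells. Setdb1 lay between 15.1 and 17.0 FPKM throughout. The called gene was Cbx3, which encodes the HP1 protein HP1-gamma, with 9.41 FPKM in young KO and 16.2 FPKM in young WT cells, and 6.32 FPKM in old KO and 15.1 FPKM in old WT cells. Cbx3 was lower in KO cells at both ages, by -0.72 and -1.13.

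Other zinc finger families are set beside these genes without a test. Zfp genes of 1 or 2 digits had a median difference of 0.02 in young KO against young WT cells (38 measured) and of -0.12 in old KO against old WT cells (34 measured). The 38 Zbtb genes measured in young cells had a median of 0.10, and the 37 measured in old cells one of 0.00. For the 14 Klf genes the medians were 0.07 and 0.17, for the 8 Zkscan genes measured -0.12 and 0.05, and for the Zscan genes -0.02 and -0.06. Next to these stand -0.03 and -0.02 for the three-digit Zfp genes.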

How the data were processed

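Total RNA sequencing of LSK cells was used, 4 libraries, 1 per group, grouped by their titles; the 2 samples of bisulfite sequencing were not analysed here. The deposited files give 1 FPKM per gene with its identifier, symbol and locus, per the file headers, and list only genes at 0.5 or more. The submitters' processing notes name StringTie 1.3.0, HISAT2 2.0.4 and the build mm10 (GRCm38), without saying what each was used for. Strand use and the treatment of multiply matching reads are not given in the sources used here.

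FPKM were divided by median-of-ratios factors over 10939 genes at 1 or more in all 4 libraries (0.981 for young KO, 1.06 for young WT, 0.979 for old KO and 0.982 for old WT). Unlisted genes were set to 0.5 and differences taken as log2(FPKM + 1), with python 3.11.15, numpy 2.4.6 and pandas 2.3.3. Calls, medians and clusters were computed over all genes and are counts, not tests. Depth was read from the spacing of the values of genes whose locus is shorter than 1500 bp; intervals cover counting error only and assume 2 kb of transcript. Named genes were those past 2-fold, the 10 with the largest difference in each direction, the 8 with the highest mean, the 5 largest of each direction by age, the leading gene of each large cluster and 20 with known roles; the members past 0.3 or 0.5 in 2 comparisons were chosen after their values were seen. Members, lists and roles were chosen with earlier results of these data known. The steps were tested on simulated data.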

Additional observations from a re-analysis of the deposited data

Results flagged for a closer look

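In 3 members KO minus WT had one sign in young and the other in old cells, with a gap of at least 1 between the ages, each time in single libraries. The difference between the ages was not tested, and for Zfp281 and Zfp422 the young value lies within the counting half-width (0.38 at the members' median level and 0.26 at 10 FPKM), so that the change of sign is not shown for them. For Zfp281 it was -1.53 in old cells and 0.20 in young cells, a gap of -1.73, and the old KO library was the low one. For Zfp260 it was -0.79 in old cells and 1.03 in young cells, a gap of -1.83, with young WT the lowest and old WT the highest library. For Zfp422 it was 2.55 in old cells and -0.03 in young cells, a gap of 2.59, and the old WT library was the low one.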

How the results depend on the processing

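No paired analysis was possible because each group has 1 library, so that the groups share fewer than 2 replicate numbers; the KO and WT libraries of an age are set side by side in the report. The counts of members past 2-fold are small and move with the settings. In young KO against young WT cells the 1 higher became 0 with a pseudocount of 5, with no scaling and with a minimum of 5 FPKM, and 2 with all Zfp symbols, and the 2 lower became 0 with a pseudocount of 5 and a minimum of 5. The median of -0.03 became -0.14 without scaling, which moved all genes by -0.10. In old KO against old WT cells the 2 higher became 1 with a pseudocount of 5, with a minimum of 5, with genes listed in all 4 libraries, with rows of 1 symbol summed and without members that overlap another listed gene (the last 2 added after seeing the data), and the 3 lower became 6 with a pseudocount of 0.1 and 0 with one of 5. In old WT against young WT cells the 1 higher became 3 with a pseudocount of 0.1 and with all Zfp symbols, 2 with unlisted genes at 0, and 0 with a pseudocount or a minimum of 5, and the 3 lower became 5 with a pseudocount of 0.1 and 1 with a pseudocount or a minimum of 5. In old KO against young KO cells the 4 higher became 1 with a pseudocount of 5, and the 1 lower became 6 with a pseudocount of 0.1, 3 with unlisted genes at 0 or all Zfp symbols, and 0 with a pseudocount of 5. The cause was not tested. Zfp422 stayed past 2-fold in old cells in 8 of 8 alternatives, between 1.59 and 3.03. The other rows called between KO and WT cells fell short with a pseudocount of 5, and Zfp260 also without scaling. Clusters numbered 32 with 123 members at a gap of 100 kb and 33 with 161 members at 1 Mb. Single libraries, the unknown exon lengths and members under 1 FPKM limit what can be read: at 1 FPKM and 2 kb counting error alone gives a half-width of 0.46 between the young and 0.34 between the old libraries.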

Other observations

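Outside the three-digit symbols, Zfp36, which codes for an RNA-binding protein that destabilises inflammatory mRNAs, had 214 FPKM in old KO and 35.2 FPKM in young KO cells, and 142 FPKM in old WT and 50.1 FPKM in young WT cells. Both old libraries were above both young ones. Zfp12 had 3.76 FPKM in young KO and 0.957 FPKM in young WT cells, and 0.942 FPKM in old KO and 0.957 FPKM in old WT cells, so that the young KO library alone was high. Both genes were chosen after their values were seen.

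The 3 X-linked members kept a narrow range across libraries with and without Xist. Zfp275 lay between 8.25 and 8.71 FPKM, Zfp182 had 2.67 FPKM in young KO, 2.19 in young WT, 2.18 in old KO and 2.00 in old WT cells, and Zfp449 lay between 1.33 and 1.44 FPKM.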
